A study of Mus musculus with 20 samples.

Results

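The fecal bacterial community of FO-treated and control mice was compared within a single experimental batch, E56A, which supplied 10 of the 20 samples of the series. The samples were taken by their batch label, with no measured value involved, and comprised 5 control and 5 FO mice. FO stands for a cycle of 2 chemotherapy drugs: oxaliplatin (3.5 mg/kg) was injected intraperitoneally, 5-fluorouracil (50 mg/kg) followed 1 h later, and the same dose of 5-fluorouracil was given again on the next day. Control mice received vehicle on the same schedule, which the study names as PBS for these stool samples and the labels as PBS or water. All were C57BL/6 mice, per the study's methods females aged 8 to 14 weeks that had been housed together for at least 10 days, and feces were taken from the rectum on day 5 after treatment. The V4 stretch of the bacterial 16S rRNA gene, a marker that identifies bacteria, was amplified from fecal DNA and sequenced. The question was what this batch shows on its own: how diversity, community make-up and single species differed between the groups, and how alike the mice of each group were.

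The mouse colon is inhabited mostly by strict anaerobes. Bacteroidales, among which the family Muribaculaceae is typical of mice, break down dietary and host glycans. The class Clostridia, with Lachnospiraceae and Oscillospiraceae as its main families here, ferments sugars and amino acids and includes many producers of butyrate, a fuel of the colon epithelium. 5-fluorouracil and oxaliplatin are toxic to dividing cells, those of the intestinal lining included. Many bacteria of mice have never been grown, so entries such as CAG-873 sp011959565 carry placeholder names from genome collections.

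Total counts ran from 37692 to 57415 reads per mouse and their means did not differ beyond the spread between mice (medians 52475 in control and 50793 in FO, exact permutation p = 0.619). The 10 mice had counts in 186 species entries, of which 99 had a mean share of at least 0.01% of reads, and reads without a species name made up 3.35% to 17.9% of a mouse's total. A count of 3 reads, the limit that a count of 0 allows, corresponded to 0.00523% to 0.00796% and covers counting error only. No pair of mice of a group had counts within sampling noise of each other, as a repeat deposit of a library would (chi-square per degree of freedom 6.51, the lowest of 20 pairs). Lists of skin and reagent taxa, organelle sequences and segmented filamentous bacteria had 0 entries with a count. Control and FO mice are numbered 1 to 5 here within each group; the number in the sample title was 41 for control 1, 42 to 46 for FO 1 to FO 5 and 47 to 50 for control 2 to control 5.

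FO mice had the more diverse community. The Shannon index, which grows with the number of entries and with how evenly reads are spread over them, was 2.62, 2.13, 2.296, 2.16 and 1.79 in control 1 to control 5. It was 2.85, 2.900, 3.04, 3.07 and 2.47 in FO 1 to FO 5. FO 1 to FO 4 lay above every control, and FO 5 lay below control 1 and above the other controls. The means were 2.200 ± 0.298 (SD, n = 5) and 2.87 ± 0.239 (SD, n = 5), a difference of 0.667 (two-sided exact permutation test over every division of the mice, p = 0.0159, where 0.00794 is the smallest p that 5 against 5 mice allow).

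Both the number of entries and their evenness were higher in FO. At an equal depth of 37692 reads, the mean of 100 draws, the control mice held from 86.4 to 124 species entries (median 117) and the FO mice from 121 to 133 (median 129). The means were 110.4 ± 14.8 and 127 ± 5.15 (SD, n = 5 each; difference 16.4, exact p = 0.0238). Control 5 had by far the fewest entries, while the FO mice kept within a narrow range. Without control 5 the difference was 10.3 entries (exact p = 0.0476). It missed the threshold when certain FO mice were left out, at 15.7, 14.8 and 15.9 entries without FO 1, FO 3 or FO 4 (exact p = 0.0714, 0.0794 and 0.0714). Evenness, the Shannon index divided by the logarithm of the number of entries found, was 0.466 ± 0.05399 in control and 0.591 ± 0.0464 in FO (SD, n = 5 each; exact p = 0.0159).

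The community of every mouse was led by the same entry, the Muribaculaceae species CAG-873 sp011959565. Its share, which is also the dominance index, was 35.7%, 44.6%, 41.7%, 45.04% and 56.9% in control 1 to control 5, and 30.8%, 24.2%, 23.6%, 22.8% and 37.2% in FO 1 to FO 5. FO 5 was the only FO mouse to reach the control range, where it lay just above control 1. Means were 44.8% ± 7.71 and 27.7% ± 6.19 (SD, n = 5 each), a difference of -17.1 percentage points (exact p = 0.0159). The 5 most abundant entries of a mouse together took up 75.6% ± 6.404 of reads in control and 60.2% ± 6.45 in FO (SD, n = 5 each; exact p = 0.0159). Second in rank was UBA7173 sp002491305, a further Muribaculaceae species, in all mice but control 1, FO 2 and FO 4, in which Bacteroides_H rodentium held that place.

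**Figure D1:**
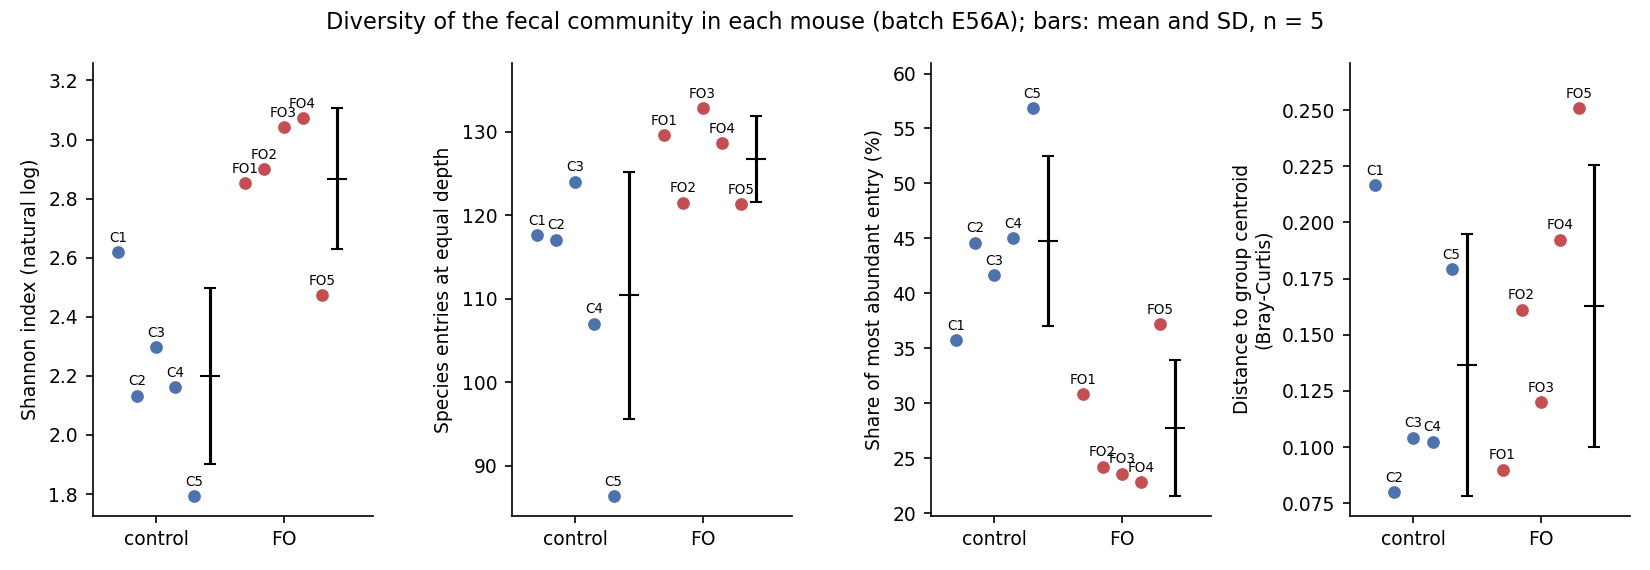
Shannon index, number of species entries at equal depth, share of the most abundant entry (%) and Bray-Curtis distance to the own group's centroid in each of the 5 control (C) and 5 FO mice, with the mean and SD of each group. FO 1 to FO 4 lie outside the control range for the Shannon index and for dominance, and FO 5 and C1 lie toward the other group.

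At the level of phyla, Bacteroidota fell and Firmicutes_A and Desulfobacterota_I rose as shares of the reads. By exact permutation tests of shares with Benjamini-Hochberg adjustment, 4 of 9 phylum entries (44.4%) passed at an adjusted p of 0.05. Bacteroidota made up 84.8%, 91.1%, 83.2%, 85.01% and 96.5% of reads in control 1 to control 5, and 70.1%, 77.97%, 64.5%, 57.6% and 80.03% in FO 1 to FO 5. The groups did not overlap, as the highest FO mouse, FO 5, lay below the lowest control mouse, control 3. Means were 88.1% ± 5.55 and 70.1% ± 9.32 (SD, n = 5 each; difference -18.1 points, exact permutation test, adjusted p = 0.0179). The order Bacteroidales had the same share in every mouse.

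Firmicutes_A, whose class here is Clostridia, mirrored this. Its share was 11.2%, 7.95%, 15.1%, 13.1% and 2.95% in control mice and 24.7%, 17.3%, 30.2%, 36.99% and 17.4% in FO mice. Again the groups did not overlap, with FO 2 the lowest FO mouse and control 3 the highest control. The mean rose from 10.05% ± 4.76 to 25.3% ± 8.48 (SD, n = 5 each; exact permutation test, adjusted p = 0.0179). Shares sum to 100% in each mouse, so the fall of one phylum and the rise of the other are not separate measurements. As a description, the log2 ratio of Firmicutes_A to Bacteroidota was -3.33 ± 1.03 in control and -1.52 ± 0.6797 in FO (SD, n = 5 each; difference 1.804), and since neither phylum overlapped between the groups, their ratio could not either.

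These calls belong to shares. On the centred log-ratio scale, where each taxon is set against the mean of all, the exact test passed no phylum after adjustment and 2 at an unadjusted p under 0.05, and edgeR with TMM scaling called none. On that scale Bacteroidota differed by -1.43 (log2; exact p = 0.0317) and Firmicutes_A by 0.38 (exact p = 0.429), both in the direction of their shares. The call of Firmicutes_A was lost when any 1 control mouse was left out (exact adjusted p = 0.0536 each), with differences of 13.5 to 16.5 points against 15.3 in all 10 mice. Bacteroidota and Desulfobacterota_I still passed without control 1, control 3 or control 4, and no phylum passed without control 2 or control 5.

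The other named phylum to rise, Desulfobacterota_I, was represented by Bilophila wadsworthia, a sulfite reducer that uses taurine set free from bile acids. It took up 0.628%, 0.1202%, 0.636%, 0.695% and 0.0673% of reads in control mice and 1.96%, 0.863%, 1.76%, 1.601% and 1.41% in FO mice. Every FO mouse lay above every control mouse, FO 2 by the smallest margin. The mean share rose 3.53-fold, from 0.429% ± 0.308 to 1.52% ± 0.419 (SD, n = 5 each; adjusted p = 0.0179 among phyla, exact test). The fourth entry that passed was the small remainder of reads with no phylum assigned (0.0115% against 0.0393%). The phyla that did not pass were Verrucomicrobiota (0.205% in control and 0.959% in FO), Deferribacterota (0.126% and 0.427%), Firmicutes_B_370539 (0.418% and 0.922%), Proteobacteria (0.0699% and 0.169%) and Firmicutes_D (0.576% and 0.603%), with exact adjusted p from 0.122 to 0.857.

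Among orders, 4 of 17 (23.5%) passed the same test: Bacteroidales fell, and Lachnospirales, Desulfovibrionales and the unassigned remainder rose (exact adjusted p = 0.0337 each). Lachnospirales accounted for 6.87%, 4.46%, 8.63%, 7.18% and 1.67% in control mice and for 15.03%, 9.43%, 19.2%, 23.4% and 10.3% in FO mice. The lowest FO mouse, FO 2, exceeded the highest control mouse, control 3, and the mean went from 5.76% ± 2.74 to 15.5% ± 5.900 (SD, n = 5 each). Oscillospirales averaged 2.86% and 6.99% but overlapped, since FO 2 had 3.68% and control 4 had 4.88% (exact adjusted p = 0.0675). Christensenellales averaged 1.04% and 2.32%, and Dehalobacteriales 0.401% and 0.922% (exact adjusted p = 0.147 for both). Leaving out any 1 control mouse left 0 orders that passed, while the difference in Bacteroidales ran from -19.3 to -15.97 points and that in Lachnospirales from 8.69 to 10.4, against -18.1 and 9.72 in all 10 mice. Leaving out FO 1, FO 2, FO 3 or FO 4 left 3 or 4 orders, and leaving out FO 5 gave 7.

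**Figure D2:**
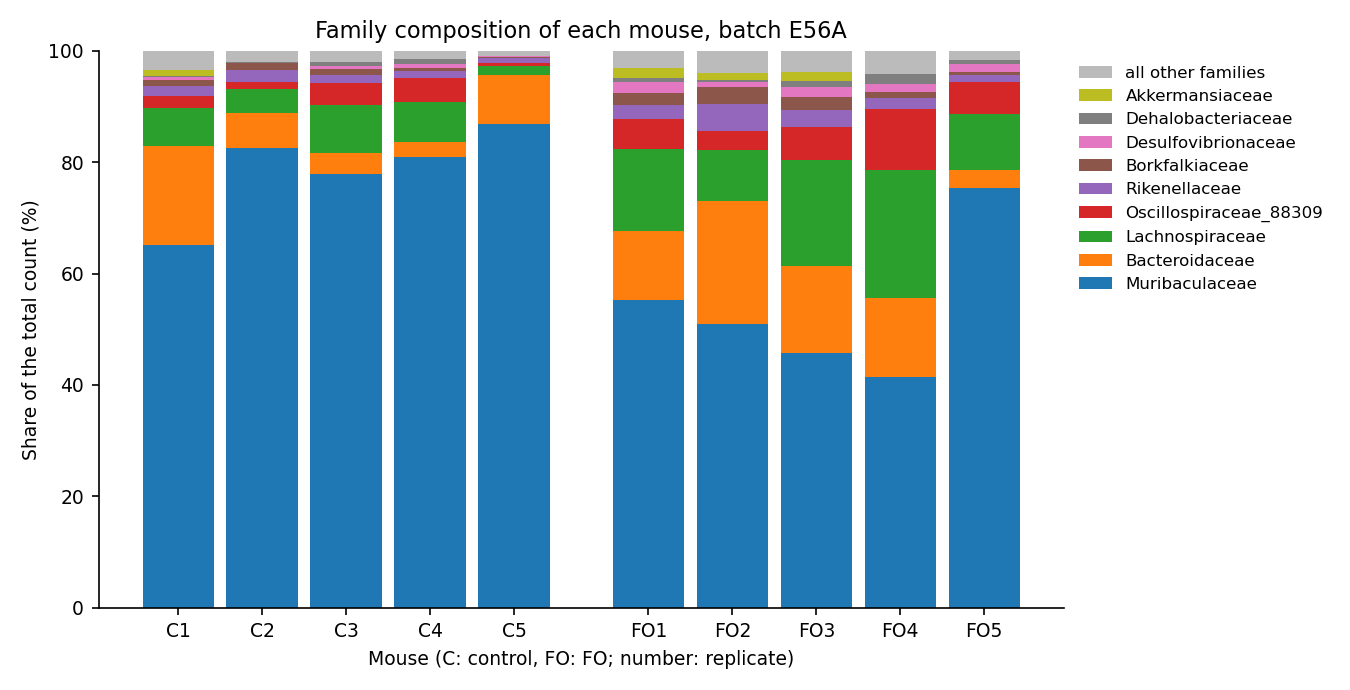
Share of the total count (%) taken by the 9 most abundant families in each mouse, with all other families pooled. Muribaculaceae ranges from 65.2% to 86.8% in control mice and from 41.5% to 75.3% in FO mice, where FO 5 has the highest value, and Lachnospiraceae is higher in every FO mouse than in any control mouse.

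Families, genera and species entries were tested as counts with edgeR's quasi-likelihood test under TMM scaling, which sets each mouse's counts against the bulk of its taxa. No family (0% of 26), no genus (0% of 62) and no species entry (0% of 73) passed at an adjusted p of 0.05. At an unadjusted p under 0.05 there were 2 families (7.69%), 11 genera (17.7%) and 9 species entries (12.3%). DESeq2 called 0 families, 7 genera and 4 species entries (5.48% of 73), and limma on the centred log ratio and the exact test of shares called 0 at each of these levels. The scaling moved the balance of directions: the median log2 change over species entries was 0.42 under TMM and 0.94 when counts were scaled by their totals only, with 65.8% and 80.8% of entries above 0. Of the entries at an unadjusted p under 0.05, 3 were higher and 6 lower in FO under TMM, against 14 higher and 2 lower under totals.

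Muribaculaceae was the largest family in every mouse and had the lower share in FO. It made up 65.2%, 82.5%, 77.9%, 80.9% and 86.8% of reads in control mice and 55.3%, 50.9%, 45.8%, 41.5% and 75.3% in FO mice (edgeR log2 change -1.30 ± 0.485 SE, adjusted p = 0.246). FO 5 alone lay inside the control range, above control 1. Without FO 5, the FO mouse nearest the controls, the log2 change was -1.90 (edgeR adjusted p = 0.00314), and with any other single mouse left out it ran from -2.11 to -1.06 and did not pass (adjusted p from 0.0616 to 0.776). Lachnospiraceae averaged 5.66% ± 2.703 and 15.2% ± 5.87 without overlap (SD, n = 5 each; edgeR log2 change 0.74 ± 0.503 SE, adjusted p = 0.4298). As a description, the log2 ratio of Lachnospiraceae to Muribaculaceae was -3.99 ± 1.06 in control and -1.88 ± 0.838 in FO (SD, n = 5 each). It was formed after the data were seen, from a family that rose without overlap and one that fell. That the ratio did not overlap between the groups either is therefore not a separate result.

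Of the remaining named families, none of those tested passed in edgeR, and Akkermansiaceae did not enter the fit. Desulfovibrionaceae, the family of Bilophila, had a log2 change of 1.33 ± 0.608 SE (edgeR adjusted p = 0.332). Mean shares in control and FO were 2.48% and 6.22% for Oscillospiraceae_88309, 0.762% and 1.81% for Borkfalkiaceae, a Christensenellales family, and 0.401% and 0.922% for Dehalobacteriaceae. Bacteroidaceae averaged 7.900% ± 5.98 and 13.5% ± 6.78, and Rikenellaceae, the family of Alistipes, 1.53% ± 0.507 and 2.77% ± 1.35 (SD, n = 5 each). The direction of both depended on the scaling, with log2 changes of -0.23 and -0.069 under TMM and of 0.77 and 0.86 under total counts. The log2 ratio of Bacteroidaceae to Muribaculaceae was -3.62 ± 1.14 and -2.201 ± 1.34 (SD, n = 5 each; exact p = 0.119).

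The 3 species entries with the smallest p were Muribaculaceae with lower values in FO, under TMM and under total counts. Duncaniella dubosii was at 1.42%, 3.14%, 1.91%, 1.89% and 5.61% in control mice and at 0.845%, 0.885%, 1.09%, 0.753% and 1.53% in FO mice. FO 5 and control 1 overlapped and the other mice did not. Its means were 2.79% ± 1.698 and 1.02% ± 0.312 (SD, n = 5 each; edgeR log2 change -2.14 ± 0.552 SE, adjusted p = 0.0689). CAG-873 sp011959565, described above, had a log2 change of -1.31 ± 0.339 SE (edgeR adjusted p = 0.0689).

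CAG-485 sp002362485, a further Muribaculaceae species, was the only entry of at least 0.01% in which every FO mouse lay below every control mouse (1.01% of 99 entries). Its shares were 1.05%, 1.45%, 1.07%, 0.929% and 1.87% in control mice and 0.9096%, 0.4296%, 0.725%, 0.584% and 0.815% in FO mice (edgeR log2 change -1.56 ± 0.4498 SE, adjusted p = 0.0977). The gap was narrow, with control 4 and FO 1 nearly equal. DESeq2 called Duncaniella dubosii (adjusted p = 0.0008598), CAG-485 sp002362485 (adjusted p = 0.00316) and CAG-873 sp011959565 (adjusted p = 0.00464), together with Ruminiclostridium_E siraeum, a Clostridia species at 0.0721% and 0.0256% (log2 change -2.07, adjusted p = 0.0358). When the mice of both batches shared one estimate of the spread, edgeR called 4 entries (4.35% of 92), the same 3 Muribaculaceae and UBA7173 sp002491305, all lower.

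UBA7173 sp002491305 was at 9.59%, 22.1%, 23.5%, 22.99% and 12.4% in control mice and at 10.4%, 9.801%, 11.1%, 8.74% and 22.3% in FO mice (edgeR log2 change -1.06 ± 0.4200 SE, adjusted p = 0.261). Control 1 and control 5 were low and FO 5 was high, so the groups overlapped widely. Muribaculum intestinale averaged 1.16% and 0.775% (edgeR adjusted p = 0.382), Duncaniella muris 2.11% and 1.94% (adjusted p = 0.434), and the reads of the family without a genus 1.92% and 1.81% (adjusted p = 0.452). UBA3263 sp001689615 averaged 3.24% and 4.63%, with a log2 change of -0.024 under TMM and 0.51 under total counts. The only entry outside the family among the 10 lower ones of smallest p that averaged 0.05% or more of reads was CAG-314 sp900551395 of the Christensenellales, at 0.142% and 0.103% (edgeR adjusted p = 0.434). Over all shares, Bacteroidales, the order of that family, held 20 of the 73 entries tested. Of the 25 with a log2 change below 0, they held 15. The family's part of the lower entries of 0.05% or more was not counted, so its number among the 10 is only a description.

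Among the 10 entries higher in FO with the smallest p, counting those that averaged 0.05% or more of reads, 8 were Clostridia. Of all 34 tested entries of that share with a log2 change above 0, 26 were Clostridia (76.5%), so the 10 lay near that background. The Lachnospiraceae species CAG-95 sp000403495 was at 0.525%, 1.64%, 1.77%, 1.37% and 0.477% in control mice and at 5.74%, 2.38%, 8.002%, 2.09% and 3.58% in FO mice. Every FO mouse exceeded every control mouse, although FO 4 and FO 2 only narrowly. Its mean share was 3.77-fold that of control, 1.16% ± 0.616 against 4.36% ± 2.49 (SD, n = 5 each; edgeR log2 change 1.32 ± 0.504 SE, adjusted p = 0.261).

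Kineothrix sp000403275, of a Lachnospiraceae genus known for making butyrate, had the largest positive log2 change under TMM among the tested entries that averaged 0.05% or more of reads (2.35 ± 0.749 SE, edgeR adjusted p = 0.141). Its shares were 0.334%, 0.103%, 0.259%, 0.218% and 0.215% in control mice and 0.563%, 0.363%, 1.08%, 7.08% and 0.523% in FO mice. All FO mice lay above the controls, but FO 4 alone made up most of the FO mean of 1.92%. Dysosmobacter sp000403435, an Oscillospiraceae species, was also highest in FO 4, with 5.596% against 1.22% to 2.28% in the other FO mice and 0.156% to 1.38% in controls (edgeR log2 change 1.10 ± 0.529 SE, adjusted p = 0.413).

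Bilophila wadsworthia had a log2 change of 1.35 ± 0.557 SE in the species fit (edgeR adjusted p = 0.279). Evtepia without a species name, of the Oscillospiraceae, was at 0.0728% to 0.2199% in control and 0.254% to 0.356% in FO mice (edgeR log2 change 0.74 ± 0.452 SE, adjusted p = 0.434). In all, 6 of the 99 entries (6.06%) had every FO mouse above every control mouse. Besides CAG-95 sp000403495, Kineothrix sp000403275, Bilophila wadsworthia and Evtepia, these were UBA2658 without a species name (14 reads over the control mice and 104 over the FO mice) and the reads without a phylum. A further 3 entries with mean shares under 0.01% did so on 1 or 2 control reads: Eubacterium_N, Anaerotignaceae without a genus and UBA2658 with its species unassigned. The other entries among these 10 were Lachnospiraceae without a genus, Lawsonibacter without a species, CAG-95 sp009917455, Fimenecus without a species and Mucispirillum schaedleri, a bacterium of the mucus layer, with log2 changes of 0.81, 1.00, 0.98, 1.52 and 1.13 and edgeR adjusted p of 0.434 each.

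**Figure D3:**
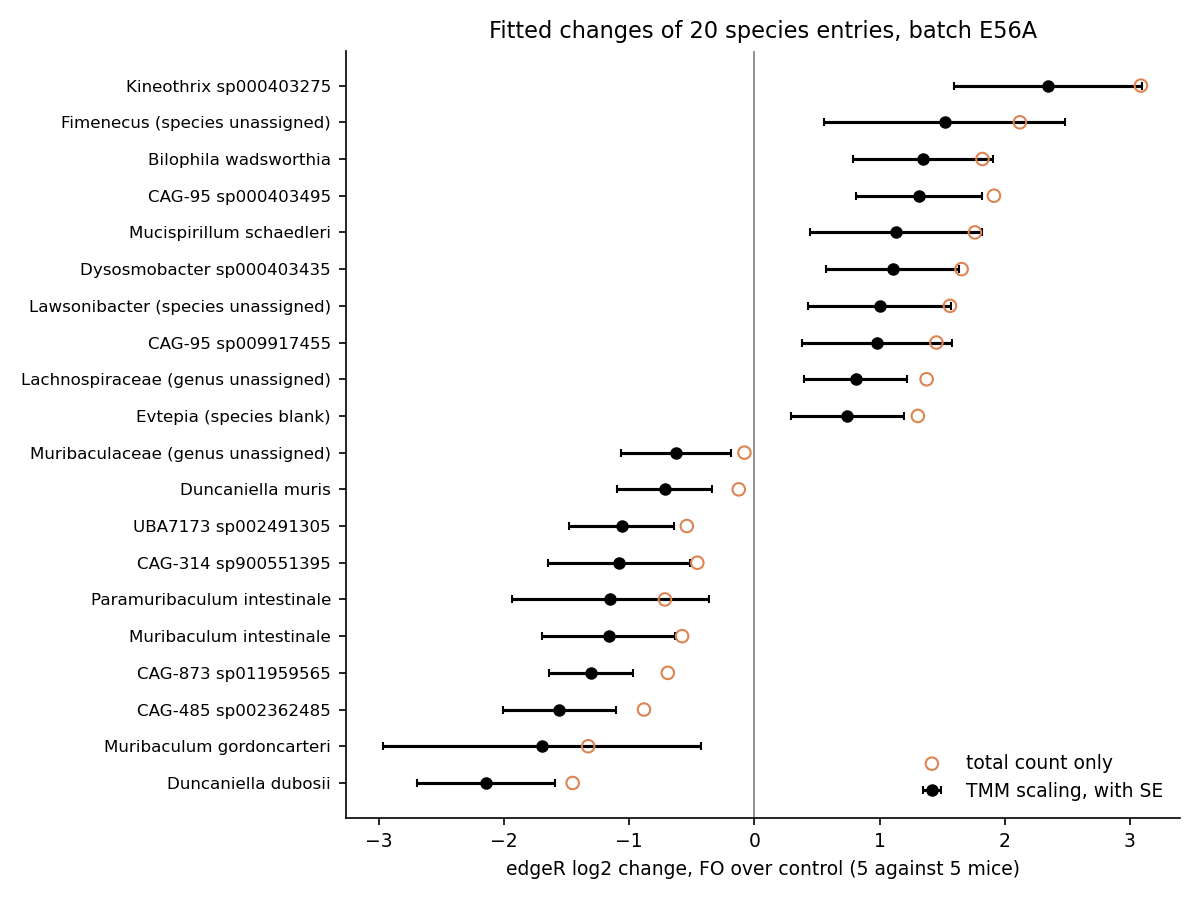
Fitted log2 change (FO over control, 5 against 5 mice) of the 10 species entries of at least 0.05% mean share with the smallest p in each direction, under TMM scaling with its SE and, as open circles, under scaling by total counts. Every open circle lies to the right of its TMM point, and none of the 20 entries changes sign between the scalings.

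Of the genera that averaged 0.05% or more of reads, the 8 of smallest p in each direction were mostly those of the species named above. Below that share, UBA2658 (log2 change 2.15, edgeR adjusted p = 0.149) and Ruminiclostridium_E (-1.95, adjusted p = 0.155) had smaller p than most of them. Those higher in FO were Kineothrix (log2 change 2.25), CAG-95 (1.33), Bilophila (1.39), Dysosmobacter (1.11), Mucispirillum (1.16), Fimenecus (1.67), Evtepia (0.75) and Lachnospiraceae without a genus (0.84), with edgeR adjusted p from 0.149 to 0.344. Those lower were CAG-873 (log2 change -1.41), Duncaniella (-1.31), UBA7173 (-1.14), Muribaculum (-1.39), CAG-485 (-1.13), CAG-314 (-1.12), Paramuribaculum (-1.38) and Muribaculaceae without a genus (-0.55), with edgeR adjusted p from 0.149 to 0.441. DESeq2 called CAG-873, Duncaniella, UBA7173, Muribaculum, CAG-485 and Ruminiclostridium_E as lower and UBA2658 as higher.

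The taxon lists consisted of whole families chosen for what their better known members do, reads without a genus included, so not every entry is known to have the function. The lists held most of the 73 entries tested, whose median log2 change was 0.42. Those of Clostridia families with butyrate producers and of Bacteroidales lay on opposite sides of that median. With 33 and 20 entries they largely set it, so this contrast is not a separate result. Under TMM, edgeR called no member of any list in the 10 mice. The 4 entries that DESeq2 called belong to the lists, as do most entries tested, so this says nothing about the lists. The list of families with butyrate producers, which here took in all Lachnospiraceae and Oscillospirales reads, had 33 entries tested, 29 with a log2 change above 0 and 4 below, and a median of 0.75. Abundant members were UBA3282 sp003611805 (2.09% in control and 3.71% in FO) and Lachnospiraceae without a genus (1.26% and 3.27%). The list of glycan-degrading families, which here took in all Bacteroidales reads, had 20 tested, 5 above and 15 below 0, and a median of -0.54. Of its Bacteroides members, Bacteroides_H rodentium averaged 5.67% and 8.03% (log2 change -0.18 under TMM and 0.50 under total counts) and Bacteroides_H acidifaciens 1.504% and 3.95% (log2 change 0.80 under TMM). Of 4 Christensenellales entries tested, 3 were above 0, with a median of 0.54.

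The remaining lists had 1 or 2 entries tested. The mucus-layer taxa, Akkermansia and Mucispirillum, summed to 1.28% in control 1 and to 0.0382% to 0.117% in the other controls, against 1.297% to 1.95% in FO 1 to FO 4 and 0.2299% in FO 5. Their means were 0.331% ± 0.532 and 1.39% ± 0.693 (SD, n = 5 each), and FO 1 to FO 4 lay above every control, control 1 only narrowly below FO 4. The sulfite and sulfate reducers were represented by Bilophila wadsworthia, described above. Lactobacilli summed to 0.0543% ± 0.04601 of reads in control and 0.0479% ± 0.0426 in FO mice (SD, n = 5 each), with a log2 change of -0.91 for the entry tested, unnamed Lactobacillus. The other Bacilli, mostly Turicibacter (0.4504% and 0.465%), had a median of -0.37. Escherichia_710834, a facultative anaerobe and the entry of the Proteobacteria list, averaged 0.0699% ± 0.106 and 0.169% ± 0.162 (SD, n = 5 each; log2 change 0.67). Clostridiaceae were represented by Clostridium_T disporicum_203972 (0.0105% and 0.0392%, log2 change 1.24). For lactobacilli, Turicibacter and Escherichia_710834 the difference between the means was smaller than the SD within either group.

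Mice differed widely within both groups. The Bray-Curtis distance, which is 0 for identical shares and 1 for no shared taxon, had a median of 0.256 over the 10 pairs of control mice, 0.256 over the 10 pairs of FO mice and 0.351 over the 25 pairs of a control and an FO mouse. Treatment accounted for R2 = 0.384 of the variation in distance (permutational analysis of distances over every division of the mice, exact p = 0.0159) and for 0.342 without FO 3 (exact p = 0.0556). On Jaccard distance, which reads only presence and absence, R2 was 0.151 (exact p = 0.127), and on Aitchison distance, which is built on log ratios, it was 0.154 (exact p = 0.0952). Of these 3 distances, only the one that weights taxa by their share separated the groups.

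Which group was the more heterogeneous depended on the distance. On Bray-Curtis distance the control mice lay 0.136 ± 0.0584 and the FO mice 0.163 ± 0.0628 from their own centroid (SD, n = 5 each; difference 0.0264, exact p = 0.508). On Jaccard distance the order turned and the groups did not overlap: the values were 0.235 ± 0.0375 in control and 0.181 ± 0.0285 in FO (SD, n = 5 each; difference -0.0548, exact p = 0.00794). On Aitchison distance the order was that of Bray-Curtis, with 17.6 ± 1.704 in control and 19.2 ± 2.23 in FO (SD, n = 5 each; difference 1.64, exact p = 0.206). By presence and absence alone, FO mice were thus more alike. Of the 186 entries, 61 had reads in all 10 mice and 24 in a single mouse. Entries found in 1 group only were 19 for FO and 16 for control, with mean shares over the 10 mice of at most 0.00837% and 0.00865%. Of these, C-53 sp003612525 was seen in 3 FO mice and Peptococcus niger in 3 control mice, and no other in as many.

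**Figure D4:**
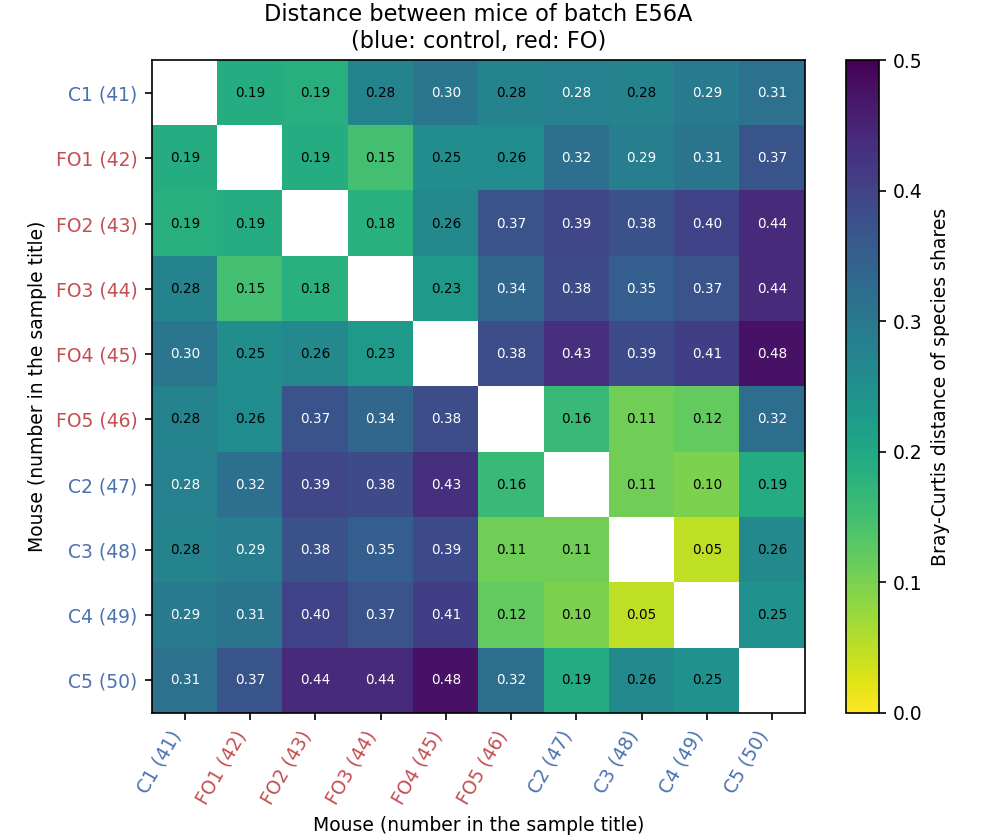
Bray-Curtis distance of species shares between every pair of the 10 mice, ordered by the number in the sample title. The shortest distance, 0.04800, joins control 3 and control 4, and the longest, 0.476, joins control 5 and FO 4; FO 5 lies 0.108 from control 3 and 0.382 from FO 4.

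In each group 1 mouse lay nearer the other group. Control 1 was at a distance of 0.206 from the mean of the FO mice and of 0.277 from the mean of the other controls, and its nearest mouse was FO 2. FO 5 was at 0.177 from the mean of the control mice and 0.3097 from the mean of the other FO mice, and its nearest mouse was control 3. Each of the other 8 mice was nearer the mean of its own group, at 0.0974 to 0.255, than that of the other, at 0.264 to 0.385. Read species by species, FO 5 was nearer the median of the other group than that of its own in 58.9% of 73 entries, control 3 in 52.1% and control 1 in 47.9%, against 19.2% to 43.8% in the other 7 mice.

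A few entries set both control 1 and FO 5 apart from their groups. Muribaculum gordoncarteri was at 0.231% to 0.298% in control 2 to control 5 and at 0.396% in FO 5, but at 0.0135% in control 1 and 0.00576% to 0.0118% in FO 1 to FO 4. Paramuribaculum intestinale was at 1.48% to 1.88% in control 2 to control 5 and 3.15% in FO 5, against 0.635% in control 1 and 0.248% to 0.547% in FO 1 to FO 4. In both entries, control 1 lay nearer the level of FO 1 to FO 4 and FO 5 nearer that of control 2 to control 5.

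Other entries ran the opposite way. Akkermansia muciniphila_D_776786, a mucin degrader, was at 0.992% in control 1 and at 1.34% to 1.82% in FO 1 to FO 3, while FO 4 had 0.0159%, FO 5 0.00561% and the other controls 0.00531% to 0.0122%. It did not enter the edgeR fit, which leaves out entries with low counts in too many mice. Bacteroides_H acidifaciens was at 4.302% in control 1 and 2.52% to 6.32% in FO 1 to FO 4, against 0.5598% to 1.05% in the other controls and 0.577% in FO 5. By title number, mice 41 to 45 (control 1 and FO 1 to FO 4) thus shared one range of these entries, except for Akkermansia in mouse 45, and mice 46 to 50 (FO 5 and control 2 to control 5) the other. What the numbers stand for is not given in the sources used here, nor is the cage of each mouse, and their part in the group differences was not tested.

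Within each run of numbers, Firmicutes_A made up 11.2% in control 1 against 17.3% to 36.99% in FO 1 to FO 4, and 17.4% in FO 5 against 2.95% to 15.1% in control 2 to control 5. Bilophila wadsworthia was at 0.628% against 0.863% to 1.96% in the first run and at 1.41% against 0.0673% to 0.695% in the second. CAG-95 sp000403495 was at 0.525% against 2.09% to 8.002%, and at 3.58% against 0.477% to 1.77%. UBA7173 sp002491305 did not separate in either run, since control 1 had 9.59% against 8.74% to 11.1% and FO 5 had 22.3% against 12.4% to 23.5%. With 1 mouse on one side of each run, these values are a description, and for the first 3 taxa, in which no FO mouse overlaps a control mouse, the order within any subset of mice is fixed by that.

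**Figure D5:**
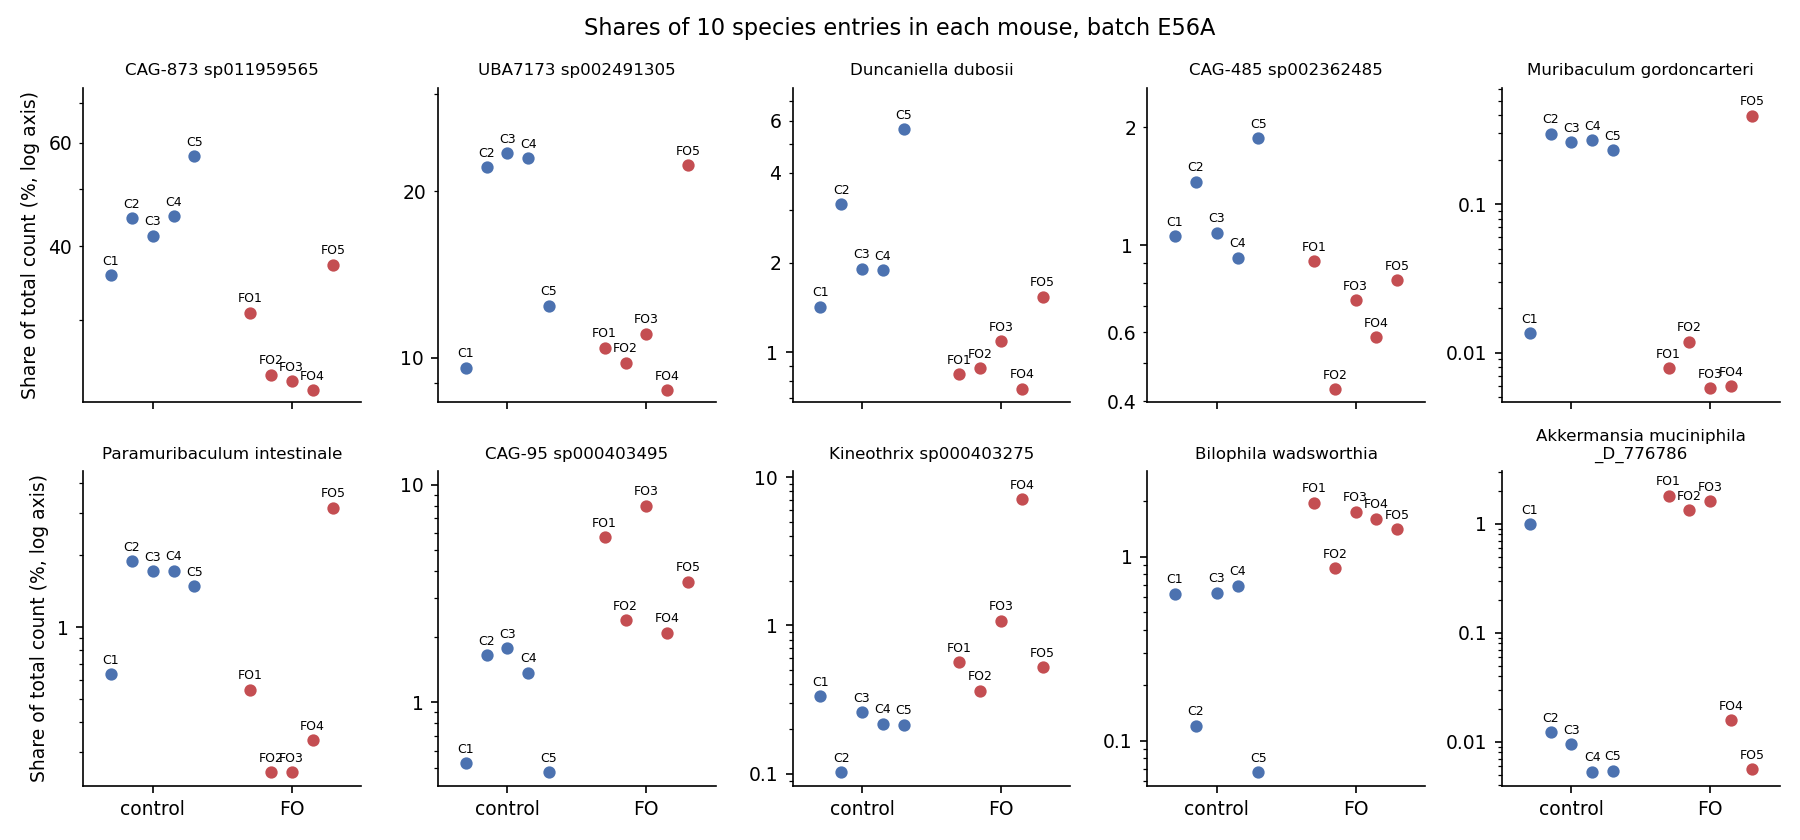
Share of the total count (%, log axis) of 10 species entries in each control (C) and FO mouse. CAG-485 sp002362485 separates the groups downward and CAG-95 sp000403495, Kineothrix sp000403275 and Bilophila wadsworthia upward, while C1 and FO 5 depart from their groups for Muribaculum gordoncarteri and Paramuribaculum intestinale.

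Values without control 1 and FO 5 are a description with no test, since those mice were picked, after their values were seen, for lying nearer the other group, a choice that itself favours a wider difference. In the other 8 mice the Shannon index differed by 0.8704, dominance by -21.7 points and R2 was 0.671. In those 8 mice, treatment and the run of title numbers coincide and cannot be told apart. Leaving out FO 5 alone, as each mouse was left out in turn, gave 7 called entries, all lower in FO and all Muribaculaceae, and leaving out any other single mouse gave 0.

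Variation between mice differed from entry to entry. Among the 55 entries with a mean share of at least 0.05%, the median coefficient of variation was 0.637 in control and 0.567 in FO, and it was larger in control for 34 entries and larger in FO for 21. Bilophila wadsworthia had a coefficient of 0.276 in FO and 0.717 in control, and Evtepia one of 0.123 and 0.437. Kineothrix sp000403275 had the reverse order, with 1.51 in FO and 0.372 in control. FO 4, which held the high Kineothrix and Dysosmobacter shares, also had 1.28% Mucispirillum schaedleri against 0.136% to 0.268% in the other FO mice.

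The FO effect in this batch was set against that in batch E53B, which holds the other 10 mice, by permuting the batch within each treatment group. The difference between FO and control was 0.667 in E56A and 0.673 in E53B for the Shannon index, and -17.1 and -9.99 points for dominance. It was -18.1 and -20.99 points for Bacteroidota and 4.13 and 7.52 points for Oscillospirales. Over these and 3 further measures (entries at equal depth, Clostridia and Lachnospirales), no difference between the batches passed (7 exact permutation tests, lowest p = 0.173, adjusted p from 0.794 to 0.978), which does not show that the effects were equal.

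Of 92 species entries, 1 (1.09%) passed edgeR's test of the interaction between treatment and batch. Duncaniella sp001689575 was at 0.443% ± 0.1696 in control and 0.458% ± 0.141 in FO in E56A and at 0.799% ± 0.323 and 0.158% ± 0.0828 in E53B (SD, n = 5 each; difference of the log2 changes 2.60, edgeR adjusted p = 0.0105). Under scaling by total counts no entry passed this test. The control mice of E56A lay farther from their centroid than those of E53B (0.136 ± 0.0584 against 0.0694 ± 0.0167, SD, n = 5 each; exact p = 0.0159, adjusted over 2 comparisons p = 0.0317). The FO mice lay at 0.163 ± 0.0628 against 0.123 ± 0.0262 (SD, n = 5 each; exact p = 0.2302).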

How the data were processed

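The authors amplified the V4 region of the 16S rRNA gene from fecal DNA and sequenced it on a MiSeq. Per the study's methods, reads were trimmed with cutadapt, merged, quality filtered and freed of chimeras in QIIME2, clustered, and named with a naive Bayes classifier against Greengenes2. The submitters' processing notes name bcl2fastq 2.2. The deposited values are counts of reads per taxon at each rank, not normalized. Amplicon counts depend on PCR efficiency and gene copy number and give relative, not absolute, abundance; without molecular identifiers, reads are not independent molecules.

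Groups and batch came from the sample labels. Nothing in the sources says whether mice of a group shared a cage. The p-values set group differences against the spread between single mice. They would be too small if mice of one cage resembled each other. The taxon lists, the named taxa and the choice of batch were made with earlier results of these data known. Named were phyla of at least 0.1% mean share, orders and families of at least 0.5%, the 10 most abundant species entries, the 8 genera and 10 species entries of smallest edgeR p in each direction among those of at least 0.05%, and entries without overlap.

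Shares were percentages of a mouse's total count. Diversity used the species table, for entries at equal depth the mean of 100 draws. Single values were compared by two-sided exact permutation, distances by pseudo-F (R2) over every division of the mice, phyla and orders of at least 0.01% mean share by exact permutation of shares, and families, genera and species by edgeR 4.0.16 (TMM, filterByExpr) with Benjamini-Hochberg adjustment at 5%, in R 4.3.3. Alternatives used DESeq2 1.42.0, limma 3.58.1 on centred log ratios (0.5 added to counts), other scalings, tables and distances, and each mouse left out. Log ratios, evenness, dispersion between batches, edgeR on phyla and orders, and leaving out control 1 with FO 5 were added after seeing the data. Scripts were tested on simulated data. Python 3.11.15 with numpy 2.4.6, pandas 2.3.3, scipy 1.17.1 and matplotlib 3.10.9 was used.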

Additional observations from a re-analysis of the deposited data

Results flagged for a closer look

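In 140 groups of 5 mice, Dixon's criterion at 95% marked 25 values as far from the other 4 mice of their group. Chance alone marks about 1 in 20 groups if values are normally distributed. Shares of scarce taxa need not be, so the 25 cannot be set against that rate. Many of these values are the same reads at several ranks. Control 1 held more of them than any other mouse. Its share was 1.598% for Firmicutes_D (others 0.2096% to 0.415%), 0.992% for Verrucomicrobiota, Verrucomicrobiales and Akkermansiaceae alike (others at most 0.0122%), 0.258% for Proteobacteria (at most 0.0401%), 4.302% for Bacteroides_H acidifaciens (at most 1.05%), 3.99% for Duncaniella muris (at most 1.75%), 4.44% for Muribaculaceae without a genus (at most 1.46%) and 0.159% for Fimenecus, as genus and as unnamed species (at most 0.0362%). Muribaculum gordoncarteri was low in control 1, at 0.0135%. In control 5 the genus CAG-485 stood at 3.302%, above the other controls.

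FO 5 stood apart with 22.3% UBA7173 sp002491305 (22.3% for the genus), 3.15% Paramuribaculum intestinale, which gave the same value for its genus, and 0.396% Muribaculum gordoncarteri. FO 4 stood apart with 7.08% Kineothrix sp000403275, also the value of its genus, 5.596% Dysosmobacter sp000403435 (5.71% for the genus) and 1.28% Mucispirillum schaedleri, the same reads as its genus and as Deferribacterota.

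Duncaniella sp001689575 differed in its FO effect between the batches, by 2.599 on the log2 scale (edgeR interaction test, adjusted p = 0.0105).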

How the results depend on the processing

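The Shannon index and dominance kept their direction and stayed past the threshold under all alternatives run. Over the fits that left out 1 mouse, the difference in observed taxa ran from 10.3 to 19.8, R2 from 0.342 to 0.539, the difference in dispersion from -0.007301 (without FO 5) to 0.0629, phyla called from 0 to 4, orders from 0 to 7, families and genera from 0 to 1, and species entries from 0 to 7, where the calls of families, genera and species came without FO 5. Without control 1 and FO 5, observed taxa differed by 19.5, and 6 phyla, 0 orders, 6 genera and 9 species entries fell under the threshold. These counts are a description and not test results. Both mice were picked, after their values were seen, for lying nearer the other group, which favours wider differences and larger counts. In the remaining mice, treatment also coincides with the run of title numbers. With 4 against 4 mice the smallest exact p is 0.0286 before adjustment, which limits the counts of phyla and orders. R2 was 0.151 on Jaccard and 0.154 on Aitchison distance, and the difference in dispersion was -0.0548 on Jaccard distance. Centred log ratios and edgeR each called 0 phyla and 0 orders. Without the filter on low counts edgeR called 1 family, Peptococcaceae_369362. DESeq2 called 7 genera and 4 species entries, and the fit with 4 group-by-batch means 6 genera and 4 species entries. The interaction with batch passed for 2 entries in limma and 0 under total counts. The cause of these shifts was not tested.

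Some named taxa near 0 changed sign. Bacteroidaceae was at 0.044 in limma and 0.77 under total counts, with -0.77 to 0.056 when 1 mouse was left out. Under total counts Rikenellaceae was at 0.86, Bacteroides_H rodentium at 0.50 and UBA3263 sp001689615 at 0.51, and without control 1 and FO 5 the last 2 were at 0.31 and 0.055. With 1 mouse left out, Rikenellaceae ran from -0.56 to 0.30, Borkfalkiaceae from -0.078 to 0.64, Dehalobacteriaceae from -0.051 to 1.00, Bacteroides_H rodentium from -0.58 to 0.078, UBA3263 sp001689615 from -0.28 to 0.13 and UBA3282 sp003611805 from -0.024 to 0.44. No paired analysis was possible because the replicate numbers only follow accession order and the title numbers differ between the groups. Depth limits entries under about 0.01%, where shares rest on a few reads.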
